A study of Mus musculus with 2 samples.

Results

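Peroxisome genes were described in the adult mouse kidney, from the factors that build the organelle to the enzymes and transporters that work in it. The members are a list of 48 gene symbols that was drawn up by function, and 47 of them had a row in the deposited gene tables, which hold 43346 gene rows. Mpv17, the remaining member, was not analysed here. The study measured whole kidney of the inbred mouse strain C57BL/6J at 8 weeks of age, by sequencing stranded libraries of RNA longer than 200 nt that had been selected for poly-A tails and depleted of ribosomal RNA. There is 1 group, adult kidney, with 2 libraries numbered as biological replicates, and no treatment, genotype or second tissue to compare them with. Each library is labelled as a pool of male and female littermates, with the health state given as unknown and the same donor label on both, so that SDs measure only the spread between these libraries.

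The Y-linked genes Ddx3y, Eif2s3y and Uty had 0 counts in both libraries, and Kdm5d had 0 and 3 counts, which goes against the label of pooled sexes. A count of 0 allows up to 3 counts, for counting error only. The libraries held 67252609 expected counts in replicate 1 and 87330097 in replicate 2. Markers of the proximal tubule, the kidney's main reabsorbing segment, were all detected (10 of 10), with a summed level of 10504 TPM in replicate 1 and 7901 TPM in replicate 2. TPM is a transcript level per length, scaled to a common sum in each library, so levels of different genes can be set side by side. Markers of neighbouring tissues differed between the libraries. The 8 skeletal muscle markers summed to 15.6 and 854 TPM. Pvalb alone gave 12.9 TPM of that sum in replicate 1, where every other muscle marker was below 1 TPM, and 35.3 TPM in replicate 2. The 8 lymphocyte markers summed to 7.53 and 60.8 TPM, and the 8 adrenal cortex markers to 54.1 and 0.990 TPM, with Cyp11b2 at 0 in replicate 2. Liver markers summed to 152 and 130 TPM, of which Ttr alone gave 123 and 103 TPM. Cyp7a1, the rate-limiting enzyme of bile acid synthesis, had 0 counts in both libraries.

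Peroxisomes are organelles bounded by a single membrane that oxidise very long and branched fatty acids, D-amino acids and 2-hydroxy acids, produce hydrogen peroxide while doing so, and remove it with catalase. They also begin the synthesis of ether lipids. They hold no genome, so every protein is made in the cytosol and imported. Most matrix proteins carry a signal in their last residues that is read by the receptor encoded by Pex5, and a few carry a signal near the amino terminus that is read by the receptor encoded by Pex7. In the kidney, peroxisomes are known to be most abundant in cells of the proximal tubule.

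The import signals were searched for in the coding sequences of the annotation, in place of the reference proteins that had been planned. The list was chosen by function and not by sequence. Most matrix proteins carry such a signal, as given above, so the shares only describe the list. The carboxyl-terminal signal was defined as serine, alanine or cysteine, then lysine, arginine or histidine, then leucine or methionine, as the last 3 codons before the stop codon. In the coding transcript with the highest level, 16 of the 47 members (34.0%) ended in this signal, against 112 of 21486 protein-coding genes (0.521%). All 16 are among the 28 members that encode enzymes. The coding ends printed here are examples picked to show the signal: the 8 genes that carry it and were at 100 TPM or more in both libraries, Nudt19 among them, and Cat, which matches it in part. The enzyme genes Acaa1b, Phyh, Acaa1a and Acox2 were also at 100 TPM or more in both libraries and lack the full signal. Each is the last 30 bases of a coding sequence on GRCm38, 5′ to 3′ on the coding strand, with the last 3 codons in capitals and the stop codon after them.
Ehhadh (chr16:21762084-21762113, minus strand): ttggcaggaccccatagcAGCAAACTGtga
Scp2 (chr4:108044750-108044779, minus strand): cagcttcagccgggcaaaGCTAAGCTGtga
Pecr (chr1:72259348-72259377, minus strand): gaatcttttaagaagaaaGCCAAGCTCtaa
Hao2 (chr3:98875309-98875338, minus strand): ccagacctgattcagttcTCCAGATTAtaa
Dao (chr5:114024877-114024906, plus strand): ttgtccaggttgcctcccTCCCACCTCtga
Pipox (chr11:77881124-77881153, minus strand): ttctctacgctgagcaaaGCCCACCTTtga
Crat (chr2:30402578-30402607, minus strand): ctccagaaccaccccaggGCCAAGCTCtga
Nudt19 (chr7:35547909-35547938, minus strand): gtgaataagagatgtactGCCCACCTGtaa
Cat (chr2:103454756-103454785, minus strand): atggctgcgaagggaaaaGCTAACCTGtaa

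Cat, the gene of catalase, matches the signal at 2 of the 3 positions, with an asparagine codon in the middle. The ends of Acox2, Acox3, Amacr, Eci2 and Hacl1 also match at 2 of the 3 positions, though not always at the same 2. That makes 6 members in all with a partial match at 2 positions, and 6.39% of all protein-coding genes match in this way. Thus 22 of the 28 enzymes matched at 2 or 3 positions. By role, the full signal was present in 6 of 7 genes of acyl group and CoA handling and 4 of 5 genes of oxidases and catalase. It was present in 5 of 11 genes of beta oxidation, 1 of 3 genes of ether lipid synthesis and neither gene of alpha oxidation. It was in none of the 13 import and assembly genes and none of the 6 genes of membrane proteins. The same signal was spelled in several ways: serine, lysine and leucine are AGCAAACTG in Ehhadh and TCGAAGCTG in Ddo. Identical codons end Scp2 and Decr2 (GCTAAGCTG), and another spelling is shared by Crat and Pecr (GCCAAGCTC). A match is a description of these letters and was not tested as a working signal.

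The amino-terminal signal was defined as arginine or lysine, then leucine, valine or isoleucine, then any 5 residues, then histidine or glutamine, then leucine or alanine. It was found in the first 40 codons of 5 members (10.6%), against 0.749% of all protein-coding genes. They are Acaa1a and Acaa1b, both thiolases of beta oxidation, Phyh of alpha oxidation, Eci2 and Pex11a. None of the 5 has the carboxyl-terminal signal, so 21 of 47 members carry 1 or the other, against 272 of 21486 protein-coding genes. These matches were not tested as working signals either, that of Pex11a, a gene of the import and membrane assembly role, included. The 27 bases of the match are shown for the thiolases and Phyh on GRCm38, with the codons of the defined residues in capitals.
Acaa1a (chr9:119341521-119341547, plus strand): CGGCTGcaggtagtgctgggcCACCTG
Acaa1b (chr9:119156962-119156988, minus strand): CGGCTGcaggtagtgctgggtCACCTG
Phyh (chr2:4919094-4919120, plus strand): CGGCTGcaggtccttctgggaCACCTC

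Nearly all members were expressed in the kidney. A level of 1 TPM or more in both libraries, taken as detected, was reached by 46 of the 47 members (97.9%), against 30.2% of all gene rows. The members were chosen with earlier results of these data known, so this share and those below only describe the list. In a further list of 39 genes of the organelle, 33 were detected (84.6%). The gene rows also hold noncoding genes, while every member is protein coding. Detected genes included 12273 protein-coding genes, beside the 21486 searched for import signals, so the share of protein-coding genes is higher than 30.2%. Abcd2, which encodes a transporter of very long fatty acids, was the exception at 0.890 TPM in replicate 1 and 0.720 TPM in replicate 2, from 253 and 285 counts. The members' median was 53.7 TPM in replicate 1 and 45.1 TPM in replicate 2, or 49.4 ± 6.05 (SD, n = 2). The median over all 13108 detected genes was 12.5 ± 1.03 TPM (SD, n = 2). A level of 20 TPM or more in both libraries was found for 35 members (74.5%), against 34.9% of detected genes. At 100 TPM or more the share was 27.7% of members (13 genes) against 8.46% of detected genes, and at 200 TPM or more it was 12.8% (6 genes) against 4.21%. Those 6 genes were Scp2, Cat, Hao2, Acaa1b, Dao and Phyh. Together the members held 0.446% ± 0.0426 (SD, n = 2) of all TPM. In whole tissue, a lower level through fewer cells of a type and through less RNA per cell cannot be told apart.

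**Figure D1:**
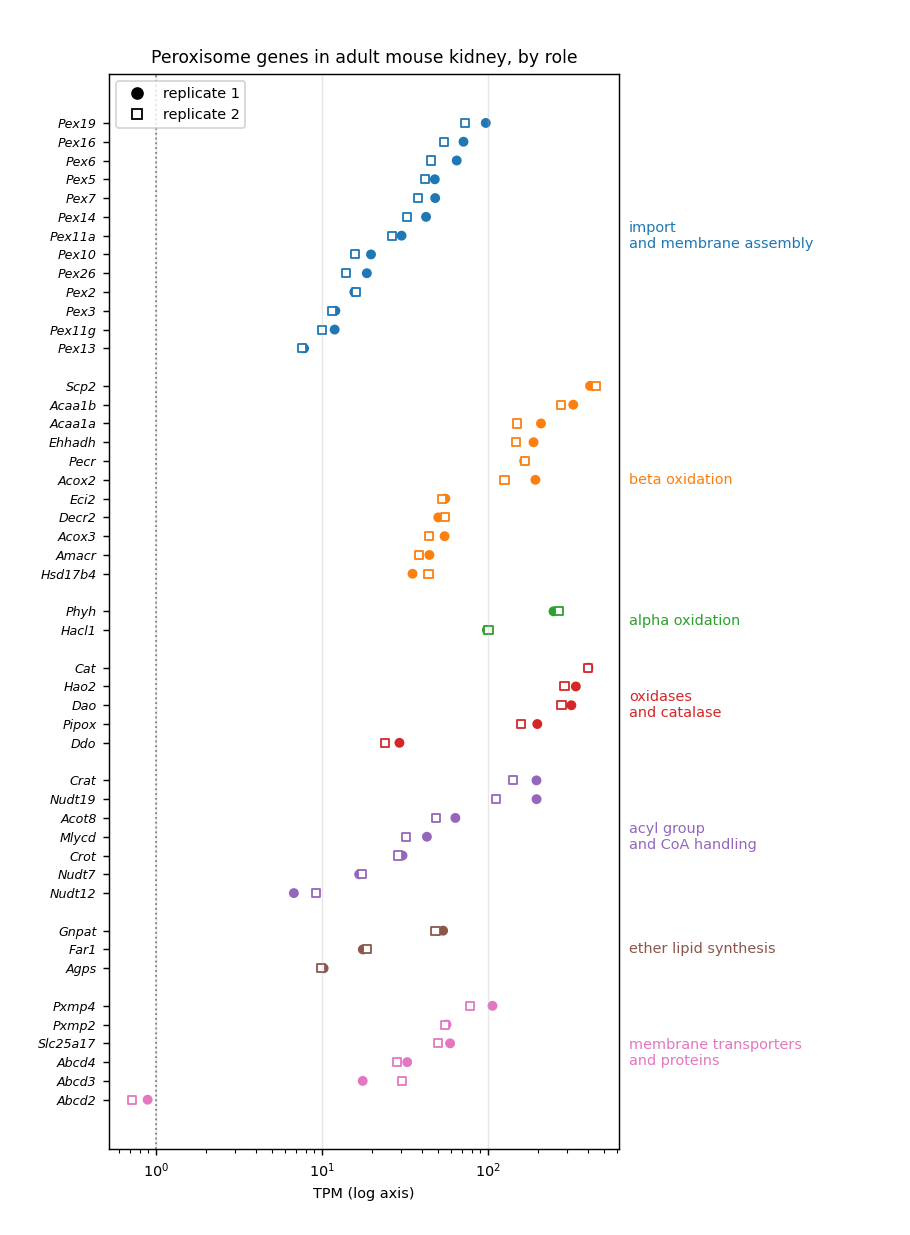
Level of each peroxisome gene in adult mouse kidney, in TPM on a log axis, with genes grouped by role; filled circles are replicate 1, open squares replicate 2, and the dotted line is 1 TPM. Scp2 and Cat lie farthest to the right, at means of 429 and 402 TPM, the import genes lie between 7.59 and 97.1 TPM, and Abcd2 is the only gene left of the dotted line.

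The 13 genes of import and membrane assembly were all detected, with a median of 28.4 ± 2.55 TPM (SD, n = 2). Pex19 and Pex16, which act with Pex3 in placing proteins into the peroxisome membrane, were the highest. Pex19, the soluble chaperone of membrane proteins, was at 97.1 TPM in replicate 1 and 73.1 TPM in replicate 2. Pex16 was at 71.2 and 54.2 TPM. Pex3, the membrane anchor to which the Pex19 protein docks, was lower, at 12.04 and 11.48 TPM, and in both libraries the levels of Pex19 and Pex3 did not overlap. The import receptors were nearly equal to each other. Pex5 was at 47.8 and 41.6 TPM, and Pex7 at 48.1 and 37.8 TPM.

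The docking complex at the membrane is formed by the products of Pex13 and Pex14, which lay far apart. Pex14 was at 42.4 and 32.7 TPM. Pex13 was the lowest import gene, at 7.80 and 7.59 TPM. Receptors are returned to the cytosol after they are marked by ubiquitin ligases of the membrane, which include the products of Pex2 (15.7 and 16.1 TPM) and Pex10 (19.7 and 15.8 TPM). They are then pulled out by an ATPase complex that includes the product of Pex6, at 64.8 and 45.1 TPM. Its membrane anchor is encoded by Pex26, which was at 18.6 and 13.9 TPM. Pex11a and Pex11g, whose proteins shape and elongate the peroxisome membrane, were at 30.2 and 26.6 TPM and at 11.9 and 9.94 TPM.

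The 11 genes of peroxisomal beta oxidation, which shortens fatty acids and bile acid precursors by rounds of oxidation, hydration, dehydrogenation and cleavage, had a median of 146 ± 27.9 TPM (SD, n = 2). This median was over that of the import genes in both libraries, at 165 against 30.2 TPM in replicate 1 and 126 against 26.6 TPM in replicate 2. Among the oxidases of the opening step, Acox2, which acts on branched side chains of bile acid precursors, was at 193 and 126 TPM. Acox3, the oxidase of branched fatty acids, was lower, at 54.8 and 44.4 TPM. Amacr, the racemase that makes branched substrates usable by these oxidases, was at 44.4 and 38.5 TPM.

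The middle steps are carried by a pair of bifunctional enzymes that differ in the configuration of their intermediate. Ehhadh, the L-bifunctional enzyme, was at 188 and 147 TPM. Hsd17b4, the D-bifunctional enzyme used for branched and bile acid substrates, was the lowest of the 11 genes in replicate 1 at 35.1 TPM and stood at 43.8 TPM in replicate 2. Ehhadh was thus higher than Hsd17b4 in both libraries, and the values did not overlap.

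Cleavage is carried out by thiolases, and their genes had the 3 highest mean levels of the role, although Pecr was above Acaa1a in replicate 2. Acaa1b was at 327 and 276 TPM and Acaa1a at 209 and 150.5 TPM. These genes are close copies of each other on chromosome 9, so their counts depend on how the authors' program divided shared reads. The deposited SD of the count was within 10% of the count for every member, these included. Scp2 (chr4:108043839-108144998), which encodes both a thiolase for branched substrates and a lipid transfer protein, had the highest mean of all members, at 412 TPM in replicate 1 and 446 TPM in replicate 2. That level counts all its transcripts. Scp2-201, the coding transcript that includes the thiolase, was at 44.7 and 47.3 TPM.

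Auxiliary enzymes that process double bonds covered a range of levels. Pecr, an enoyl-CoA reductase, was at 165 and 168 TPM. Eci2, an isomerase, was at 55.4 and 52.6 TPM. Decr2, the dienoyl-CoA reductase, was at 50.2 and 55.2 TPM, so that Eci2 and Decr2 overlapped.

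Both genes of alpha oxidation, which removes a single carbon from phytanic acid, were high. Phyh, the hydroxylase of the opening step, was at 248 and 267 TPM. Hacl1, the lyase that follows it, was at 98.5 and 101 TPM. Phyh was above the top member of the ether lipid, import and acyl group roles in both libraries.

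The role of oxidases and catalase, with 5 genes in all, had the highest median of any role, 298 ± 28.8 TPM (SD, n = 2). Cat (chr2:103453849-103485160), which breaks down hydrogen peroxide, was at 403 and 402 TPM, from 52038 and 72182 counts. Hao2, an oxidase of longer 2-hydroxy acids, was at 339 and 289 TPM. Dao, the D-amino acid oxidase, was at 318 and 277 TPM. Cat was above both oxidases in each library. Pipox, the oxidase of pipecolic acid and sarcosine, was at 198 and 158 TPM. Ddo, the D-aspartate oxidase, was the low member of this role, at 29.3 and 24.1 TPM, and both of its values were below those of Dao.

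Genes that handle acyl groups and coenzyme A had a median of 37.4 ± 7.76 TPM (SD, n = 2) and a wide range. Crat, a carnitine acyltransferase for short chains that also serves mitochondria, was at 196 and 142 TPM. Crot, its counterpart for medium chains shortened in the peroxisome, was at 30.6 and 28.8 TPM, below Crat in both libraries. Acot8, a thioesterase, was at 63.6 and 48.8 TPM, and Mlycd, the malonyl-CoA decarboxylase, was at 42.9 and 31.9 TPM. The Nudt enzymes of the list hydrolyse nucleotide diphosphate links, and they did not share a level. Nudt19, which degrades coenzyme A and is known as the kidney's enzyme of this kind, was at 196 and 113 TPM. Nudt7, the related enzyme known from liver, was at 16.8 and 17.4 TPM. Nudt12, which acts on NADH, was at 6.77 and 9.22 TPM, and the 3 genes kept this order in both libraries.

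Ether lipid synthesis had the lowest median, 18.2 ± 0.792 TPM (SD, n = 2), over 3 genes. Gnpat, which adds the first acyl chain, was at 53.7 and 48.3 TPM. Agps, which exchanges that chain for a fatty alcohol, was at 10.2 and 9.82 TPM. Far1, which makes the alcohol, was at 17.6 and 18.8 TPM. The values of the genes did not overlap.

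Among membrane proteins, Pxmp4, a membrane protein of the organelle, was highest at 107 and 78.4 TPM. Pxmp2, which forms a pore for small solutes, was at 56.3 and 55.4 TPM, and Slc25a17, a carrier of coenzyme A and related cofactors, was at 59.1 and 50.3 TPM. The transporters of the ABC family were lower. Abcd4, whose protein is known to work in lysosomal cobalamin transport, was at 32.6 and 28.1 TPM. Abcd3, the transporter of branched fatty acids and bile acid precursors, was at 17.6 and 30.5 TPM. Abcd2 was under the 1 TPM taken as detected in both libraries, from 253 and 285 counts as given above.

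Peroxisomal and mitochondrial beta oxidation genes had similar median levels. A list of 18 mitochondrial genes of the pathway was detected in full and had a median of 157 ± 14.6 TPM (SD, n = 2), beside 146 ± 27.9 TPM for the 11 peroxisomal genes. In replicate 1 the medians were 165 TPM for the peroxisomal and 167 TPM for the mitochondrial genes. In replicate 2 they were 126 and 147 TPM, so the peroxisomal median was the lower in both libraries. The level of Scp2 counts all its transcripts, and Scp2-201, which includes the thiolase, was at 44.7 and 47.3 TPM. By gene level, Scp2 was above every gene of the mitochondrial list in both libraries. The highest of these were Hadh, a dehydrogenase for short chains, at 363 TPM in replicate 1, and Etfb, a subunit of the electron carrier of the pathway, at 345 TPM in replicate 2. The range of the peroxisomal genes lay between 35.1 and 412 TPM in replicate 1, and that of the mitochondrial genes between 26.7 and 363 TPM. Fat markers (1797 and 1054 TPM summed) and brown fat markers (326 and 425 TPM) were also present in both libraries. Cfd alone gave 1380 TPM of the fat sum in replicate 1 and 709 TPM in replicate 2. Ucp1, the defining brown fat gene, was at 196 and 246 TPM, and the part of these tissues in the levels of fatty acid oxidation genes was not tested.

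**Figure D2:**
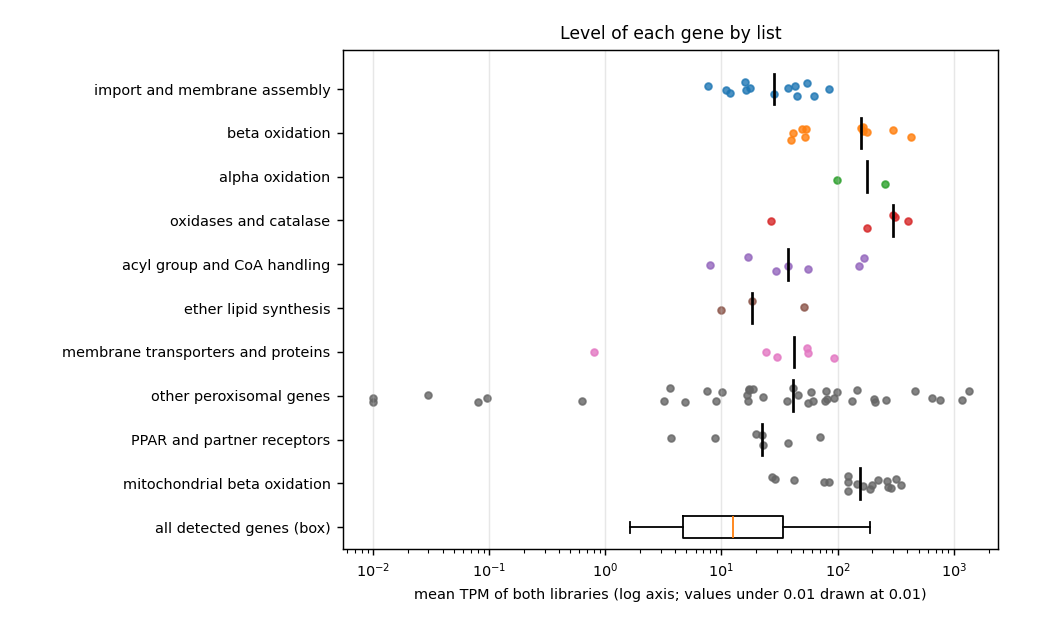
Mean TPM of both libraries for each gene of a list, on a log axis; each point is a gene, short vertical lines mark the median of the points, and the box gives the quartiles of all detected genes, with whiskers at the 5th and 95th percentiles. Oxidases with catalase and the oxidation pathways lie to the right of the box's middle line. The import genes have a median of 28.4 TPM, with means from 7.70 TPM (Pex13) to 85.1 TPM (Pex19).

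The libraries were then compared for each member, to show how far a level held between them. The ratio is that of expected counts, replicate 2 over replicate 1, after TMM scaling, which sets the libraries to a common level from their genes of middling change, with an exact 95% interval that covers counting error only. With 1 library on each side there is no test between them. A ratio of 1.5-fold or more in either direction was found for 2 of 46 members (4.35%), against a background of 10.0% of 13568 genes with a mean of 1 TPM or more. The background was 8.40% among protein-coding genes only, and 5.31% among genes within the members' range of levels, which is near the members' share. Ratios within 1.2-fold were found for 38 members (82.6%), against 61.8% of all genes. None of the 46 members reached 2-fold, against 3.49% of all genes. For the 1.2-fold and 2-fold rules no background within the members' range of levels was calculated. These shares therefore do not show that members differed less than genes of similar level.

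Abcd3 (chr3:121758774-121815302) was the member that was higher in replicate 2. It had 3015 counts in replicate 1 and 7250 in replicate 2, a ratio of 1.95 (95% interval 1.87 to 2.04). Nudt19 (chr7:35547185-35556304) was the member that was lower. It had 21898 and 17454 counts, a ratio of 0.647 (95% interval 0.634 to 0.660). The background was 6.78% of genes for higher and 3.24% for lower ratios. Beside these values, the 8 skeletal muscle markers and the 7 lymphocyte markers with a mean of 1 TPM or more were all over 1.5-fold higher in replicate 2. The 5 adrenal cortex markers at that level were all lower, and the 10 proximal tubule markers had ratios between 0.698 and 1.14. The part of these tissues in the ratios of Abcd3 and Nudt19 was not tested.

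The members closest to the limit without reaching it were Hsd17b4 at 1.40 (95% interval 1.35 to 1.45), Far1 at 1.36 (95% interval 1.30 to 1.43), Acox2 at 0.771 and Pex6 at 0.776. Of the 6 members at 200 TPM or more, Scp2 had a ratio of 1.23, Phyh 1.21 and Cat 1.13, while Acaa1b and Hao2 were at 0.966 and Dao at 0.990. Scp2 and Phyh were thus outside 1.2-fold. Genes of the same complex or step did not always lie on the same side of 1 with TMM scaling. Pex6 and Pex26 were both below 1, at 0.776 and 0.854, while Pex13 was at 1.13 beside Pex14 at 0.875. The bifunctional enzymes lay on opposite sides, with Ehhadh at 0.878 and Hsd17b4 at 1.40.

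Of the 46 members, 19 had a ratio above 1 and 27 below (41.3% above, against 51.4% of all genes). On the TPM scale the split was 11 above and 35 below (23.9% above, against 28.4% of all genes). TPM moved the median log2 ratio of all genes from 0.01 to -0.17 and that of the members from -0.04 to -0.20, so a member's lower TPM in replicate 2 is to be read against that shift. Import genes had 4 ratios above 1 and 9 below with TMM scaling, and on the TPM scale 1 above and 12 below. Mitochondrial beta oxidation genes had 15 above and 3 below with TMM scaling, but 8 above and 10 below on the TPM scale. Beside these, the 5 brown fat markers with a mean of 1 TPM or more all had a TMM-scaled ratio above 1, with a median of 1.48, and 5 of the 6 fat markers were below 1, with a median of 0.685. The part of fat tissue in the ratios of either pathway was not tested.

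**Figure D3:**
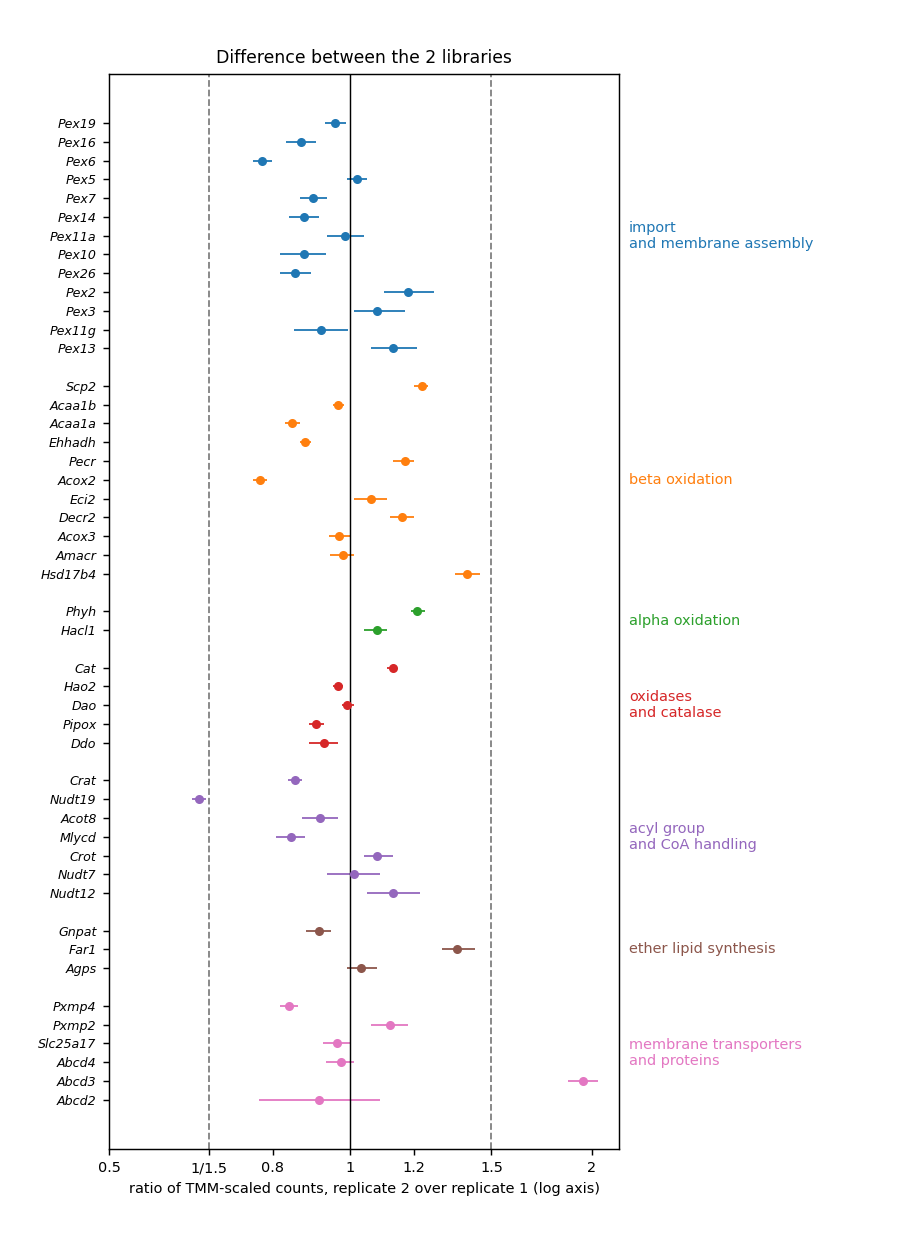
Ratio of TMM-scaled counts, replicate 2 over replicate 1, for each peroxisome gene on a log axis, grouped by role; bars are exact 95% intervals for counting error, and dashed lines mark 1.5-fold in either direction. Abcd3 at 1.95 and Nudt19 at 0.647 lie outside the dashed lines.

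Transcript shares were read for the 39 detected members with 2 or more annotated transcripts, as percent of the gene's TPM. The leading transcript was the same in both libraries for all but Nudt12, which is 2.56% of these members, against a background of 11.5% of detected protein-coding genes. A share differed by 10 points or more for 4 members (10.3%), against 33.3% of those genes. The members' median share in transcripts not annotated as protein coding was 7.89% and 7.15%, against 6.08% and 5.28%. Such transcripts made up 20% or more in both libraries for 8 members (20.5%, against 28.4%). No background within the members' range of levels was calculated for transcript shares. These values therefore do not show that the members' shares were steadier than those of genes of similar level.

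Scp2 divided its high level over several transcripts in the same way in both libraries. The short coding transcript Scp2-202, of 143 codons, held 49.3% and 50.8%, and encodes the lipid transfer protein. The long coding transcript Scp2-201, of 547 codons, which includes the thiolase, held 10.8% and 10.6%. The processed transcript Scp2-203 held 31.5% and 28.2%. Both coding transcripts end in the same 30 bases and thus in the same import signal shown above.

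The 4 members with a share that far apart were Nudt12, Pecr, Far1 and Eci2. In Pecr, the transcript Pecr-204, annotated as a target of nonsense-mediated decay, held 27.9% in replicate 1 and 11.9% in replicate 2, while the coding Pecr-201 held 71.2% and 87.2%. In Nudt12, the coding Nudt12-201 held 59.2% and 28.5%, and Nudt12-203 was listed at 0 in replicate 1 and at 29.9% in replicate 2. The retained intron transcript Nudt12-202 held 40.8% and 41.7%, so it led in replicate 2 at nearly the same share as in replicate 1. In Far1, the retained intron transcript Far1-204 held 21.8% and 10.7%, and the coding Far1-202 held 26.4% and 37.5%. In Eci2, Eci2-203 held 10.3% and 0.0900%, and Eci2-213 held 0.840% and 12.6%, while the leading Eci2-211 was at 34.6% and 35.8%. Both of the former are coding transcripts, and no counting interval can be given for such shares, since they rest on the authors' division of reads among overlapping transcripts.

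**Figure D4:**
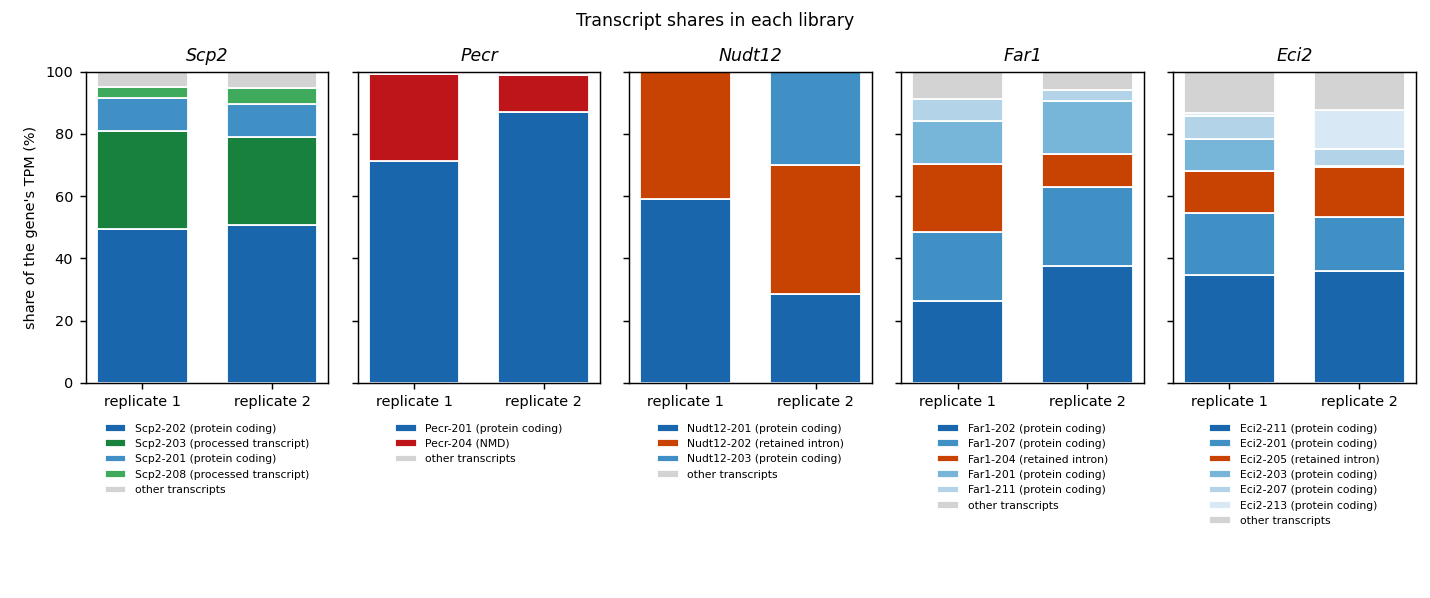
Share of each transcript in its gene's TPM, in percent, for Scp2 and for the 4 genes with a share that differed by 10 points or more; blue is coding, green processed, red a target of nonsense-mediated decay (NMD), orange a retained intron and grey all other transcripts. The Scp2 bars are alike in both libraries, while the red part of Pecr goes from 27.9% to 11.9%.

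Other genes of the organelle were read from a list of 39, of which 33 were detected (84.6%), with a median of 38.8 ± 10.3 TPM (SD, n = 2). The highest were Prdx5, a peroxiredoxin shared with mitochondria, at 1209 and 1480 TPM, and Slc27a2, which activates very long fatty acids, at 1473 and 883 TPM. With TMM scaling, no gene of this list with a mean of 1 TPM or more passed 1.5-fold between libraries, but Mpv17l (ratio 0.667, 95% interval 0.656 to 0.678), Acbd5 (95% interval 1.38 to 1.62) and Slc27a2 (ratio 0.675) lay at or near that limit. With DESeq2 size factors 1 gene passed, Mpv17l, with the total count 2, Mpv17l and Slc27a2, and with TPM 5. Below 0.1 TPM in both libraries were Hao1, Agxt and Far2, a relative of Far1. Hao1, the oxidase of glycolate, had 0 counts in both libraries, where the related Hao2 was among the highest members. Agxt, the aminotransferase that removes glyoxylate, was at 0.01 and 0.05 TPM, and Far2 was at 0.01 TPM in both.

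Receptors and partners that control peroxisomal genes were also read, since PPAR-alpha is the receptor through which peroxisome proliferators act. All 7 were detected, with a median of 22.3 ± 2.35 TPM (SD, n = 2), and none reached 1.5-fold between libraries. Ppara was at 25.0 and 20.7 TPM, Ppard at 21.4 and 18.7 TPM and Pparg at 9.67 and 8.07 TPM. Rxra, the common partner receptor, was highest, at 72.0 and 69.8 TPM.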

How the data were processed

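The members and gene lists were chosen with earlier results of these data known. Gene and transcript tables of 2 kidney libraries were read. Their build is mm10 and their annotation M4, as the deposited text records state. Which aligner and quantifier made them is not given in the sources used here. An expected count per gene, which need not be whole, was deposited by the authors and rounded here for ratios. TPM and FPKM stand beside it, per the file headers. A deposited signal value gives the posterior SD of each count. Isoform shares are in percent, per the file headers of the transcript tables.

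Names, positions and coding sequences came from GENCODE M21 on GRCm38, and 42462 of 43346 gene rows had a symbol. TMM factors from edgeR 4.0.16 (R 4.3.3) were 1.03 and 0.974, and DESeq2 1.42.0 gave alternative size factors. The calculation was tested on simulated data. Replicate differences carry no p-value. Import signals had been planned on reference proteins and were searched in coding sequences instead, in the coding transcript with the highest mean TPM. All members were named. Of the other lists, the rule allowed the 4 highest genes, genes below 0.1 TPM in both libraries, genes past 1.5-fold and all Y-linked genes. Cyp11b2, Ppard, Pparg, Tmem135, Mpv17l and Acbd5 were named outside it, after their values were seen. The limits of 1.2-fold and of 20 TPM and above used for counts of members were also chosen after the values were seen. Tables on mm9 were not used.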

Additional observations from a re-analysis of the deposited data

How the results depend on the processing

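The 46 members detected remained 46 when either replicate was left out, became 47 at 0.5 TPM and stayed 46 at 5 TPM. The members' median of 49.4 TPM ran from 45.1 to 53.7 when a replicate was left out, and was 39.8 in FPKM, which is scaled differently. With DESeq2 size factors or the total count, 2 members passed 1.5-fold, and with TPM (pseudocount 1 or 0.1) 3 members passed, Acox2 being added. Abcd3 and Nudt19 stayed past 1.5-fold in the same direction under each scaling. By counts in place of TPM, the leading transcript differed for Nudt7 and not for Nudt12. With the longest coding sequence, an alternative chosen after seeing the data, 15 members kept the carboxyl-terminal signal, Decr2 being lost. The direction of some other ratios depended on the scaling. The median ratio of the mitochondrial beta oxidation genes was 1.14 with TMM scaling and 0.995 with TPM (pseudocount 1). The other genes of the organelle had 21 ratios above 1 and 12 below with TMM scaling. With TPM they had 10 above and 23 below. Import genes had a median ratio below 1 in both, at 0.918 and 0.812. No paired analysis was possible because there is only 1 group. With 2 libraries, the data give no error for a ratio beyond counting.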

Other observations

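In 2 further genes tied to peroxisomes, TPM and counts gave different pictures of the libraries. Tmem135, a membrane protein of peroxisomes and mitochondria, was at 77.3 TPM in replicate 1 and 35.1 TPM in replicate 2, while its scaled counts had a ratio of 0.898. Its transcript Tmem135-205 held 53.0% and 19.9% of the gene's TPM, and Tmem135-201 held 25.3% and 51.8%. Mpv17l, a membrane protein of the organelle that is abundant in kidney, was at 689 and 239 TPM, with a ratio of 0.67 in scaled counts. Its transcript Mpv17l-205 held 35.2% and 12.7%, and Mpv17l-201 held 11.8% and 28.4%. The gene level in TPM depends on the length of the transcripts to which reads were assigned, and the part of that assignment in these differences was not tested.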
